A study of Rattus norvegicus with 6 samples.

Results

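The genes described here are Olig2, Nkx6-2, Klk6 and Septin4, 4 of the 29039 features in the deposited count table of the rat ventromedial hypothalamus (VMH). They are grouped as genes of oligodendrocytes and were chosen by their difference between predator odor (PO) and control odor, since all 4 stand in the study's own list of top genes higher after PO exposure, which runs in order of adjusted p. Their values in that comparison are therefore a description to which no test is attached. All 4 passed the filter on low counts, which kept 16685 features. The table names them by the Ensembl identifiers ENSRNOG00000028658 (Olig2), ENSRNOG00000017748 (Nkx6-2), ENSRNOG00000031927 (Klk6) and ENSRNOG00000007367 (Septin4).

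RNA was sequenced from bilateral VMH micropunches of 6 male Sprague Dawley rats of about 10 months, with 1 library per rat. Rats P8, P13 and P14 received a towel on which ferrets had bedded (PO), and rats C2, C3 and C4 received a clean towel of the same kind (control odor), each for 20 minutes in the home cage. All 6 rats had been handled and given the control odor daily for 2 weeks, and all were anesthetized with isoflurane before the brain was taken. The question was which transcripts differ in the VMH, a hypothalamic nucleus that takes part in responses to predator threat and in energy balance, shortly after PO exposure. Libraries held between 15835375 and 20316213 counts in all.

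Oligodendrocytes are the glial cells that wrap axons of the central nervous system in myelin. They arise from dividing precursors that persist in the adult brain, and transcription factors acting in sequence turn on first the lineage and then the genes of the myelin sheath. Olig2 is a basic helix-loop-helix (bHLH) factor present from the precursor onward and required for the lineage. Nkx6-2, also known as Gtx, is a homeodomain repressor of maturing oligodendrocytes that in mice shapes the contact between myelin and axon. Klk6 is a secreted serine protease of the kallikrein family that is abundant in oligodendrocytes of the rat spinal cord and brain. Septin4 is a GTP-binding protein that assembles with other septins into filaments, and in mice such filaments lie within the myelin sheath.

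The 4 genes lie on 3 chromosomes. The bases just before the annotated start of each RefSeq gene in the rat build GRCr8 are shown, to compare the start regions of genes whose levels ran in parallel. At most 250 bases are shown, and fewer where the window in the RefSeq table began nearer to the gene start (145 for Klk6 and 205 for Septin4). The windows are chr11:43961335-43961584 on the plus strand for Olig2, chr1:203813123-203813372 on the minus strand for Nkx6-2, chr1:103415266-103415410 on the plus strand for Klk6 and chr10:72863764-72863968 on the plus strand for Septin4. Septin4 has 4 such windows in the RefSeq table, the outermost is shown, and which start is used in these samples is not known. Capitals mark matches, on either strand, to CANNTG (the E-box that bHLH factors bind), CCAAT (the CCAAT box, ATTGG on the other strand) and TAAT (the core bound by many homeodomain factors).
Olig2: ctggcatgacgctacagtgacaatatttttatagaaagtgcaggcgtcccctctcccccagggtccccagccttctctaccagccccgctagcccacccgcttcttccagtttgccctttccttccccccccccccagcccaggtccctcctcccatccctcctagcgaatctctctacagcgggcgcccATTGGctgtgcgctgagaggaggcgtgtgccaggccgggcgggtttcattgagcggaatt
Nkx6-2: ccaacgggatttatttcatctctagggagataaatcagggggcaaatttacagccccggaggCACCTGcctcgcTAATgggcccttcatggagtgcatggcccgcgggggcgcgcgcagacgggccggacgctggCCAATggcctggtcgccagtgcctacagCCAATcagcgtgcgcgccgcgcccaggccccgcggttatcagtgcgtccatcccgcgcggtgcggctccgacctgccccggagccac
Klk6: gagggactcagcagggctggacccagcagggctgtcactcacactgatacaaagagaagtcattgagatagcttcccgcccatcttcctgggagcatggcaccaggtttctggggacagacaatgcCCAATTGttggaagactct
Septin4: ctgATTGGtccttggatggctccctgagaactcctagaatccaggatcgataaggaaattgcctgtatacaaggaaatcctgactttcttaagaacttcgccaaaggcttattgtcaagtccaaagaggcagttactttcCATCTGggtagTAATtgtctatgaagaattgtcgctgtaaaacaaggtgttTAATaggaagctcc

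Each of the 4 windows held at least 1 CCAAT box, beginning 60 bases before the start in Olig2, 115 and 87 bases in Nkx6-2, 19 bases in Klk6 and 202 bases in Septin4. Over all 33469 windows of the table, CCAAT was present in 34% at a length of 250 bases (the length shown for Olig2 and Nkx6-2), 29.7% at 205 bases (Septin4) and 22.9% at 145 bases (Klk6). The shares over all windows were counted in the bases up to base 250 of each window, rather than up to the gene start. CANNTG was found once each in Nkx6-2, Klk6 and Septin4 and not in the Olig2 window, and 45.3% to 65.5% of windows of these lengths hold it. In Klk6 the CANNTG and CCAAT matches overlap. TAAT was found once in Nkx6-2 and in 2 places in Septin4, against 39.1% to 57% of all windows with at least 1 match. These matches describe letters in a window and no binding was measured. No annotated RefSeq gene overlaps any of the 4. Olig2 is next to Olig1, and Klk6 lies between its paralogs Klk7 and Klk5. Reads that fit more than 1 kallikrein gene, if there are any, could be counted differently by another pipeline, and this was not tested.

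Of the 2 transcription factors, Olig2 had counts of 1387, 1248 and 1197 in PO libraries P8, P13 and P14, against 821, 829 and 804 in control odor libraries C2, C3 and C4. Expressed as CPM, the count relative to the library's total, with TMM normalization for library composition, these were 69.4, 68.9 and 71.6 CPM after PO exposure and 46.5, 50.8 and 43.3 CPM after control odor. The groups did not overlap, and the lowest PO library stood 1.36-fold above the highest control odor library. The mean level was 70.0 ± 1.46 CPM in PO rats and 46.9 ± 3.75 CPM in control odor rats (SD, n = 3 each), a 1.49-fold difference, which edgeR fitted as 0.58 on the log2 scale (standard error 0.07). The 3 PO libraries were very close to each other, with a coefficient of variation of 2.09%, where counting error alone would give 2.80%. In control odor libraries the coefficient was 7.99%, against 3.50% for counting alone.

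Nkx6-2 had 42.7, 38.6 and 53.1 CPM in PO libraries P8, P13 and P14, against 29.3, 27.9 and 20.6 CPM in control odor libraries C2, C3 and C4. The groups again did not overlap, by 1.32-fold at their nearest libraries. The means were 44.8 ± 7.47 CPM in PO rats and 25.9 ± 4.64 CPM in control odor rats (SD, n = 3 each). The fitted log2 fold change was 0.79 ± 0.16 (standard error). Its coefficient of variation was 16.7% in PO libraries and 17.9% in control odor libraries, where counting alone would give 3.51% and 4.71%. For comparison, the common biological coefficient of variation between rats over all features, as edgeR estimated it, was 0.142.

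Klk6, the protease, had 36.1, 34.1 and 52.3 CPM in the PO libraries and 24.7, 26.0 and 19.4 CPM in the control odor libraries, in the same order of rats. P14 stood apart from the other PO rats, 1.53-fold above the lowest of them, and all 3 lay above the control odor rats. The means were 40.8 ± 9.97 CPM after PO exposure and 23.4 ± 3.49 CPM after control odor (SD, n = 3 each). Its log2 fold change of 0.81 ± 0.19 (standard error) was the largest of the 4 genes, though it differed from that of Nkx6-2 by less than its standard error, and its coefficient of variation of 24.4% in PO libraries was also the largest.

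Septin4, the filament protein, had the highest counts, with 257, 249 and 332 CPM in the PO libraries and 209, 201 and 154 CPM in the control odor libraries. The groups did not overlap, with the smallest gap of the 4 genes at 1.19-fold. The means were 280 ± 45.9 CPM in PO rats and 188 ± 29.8 CPM in control odor rats (SD, n = 3 each), and the fitted log2 fold change was 0.58 ± 0.17 (standard error). Counting error would account for a coefficient of variation of 1.40% in PO libraries, and 16.4% was observed.

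**Figure D1:**
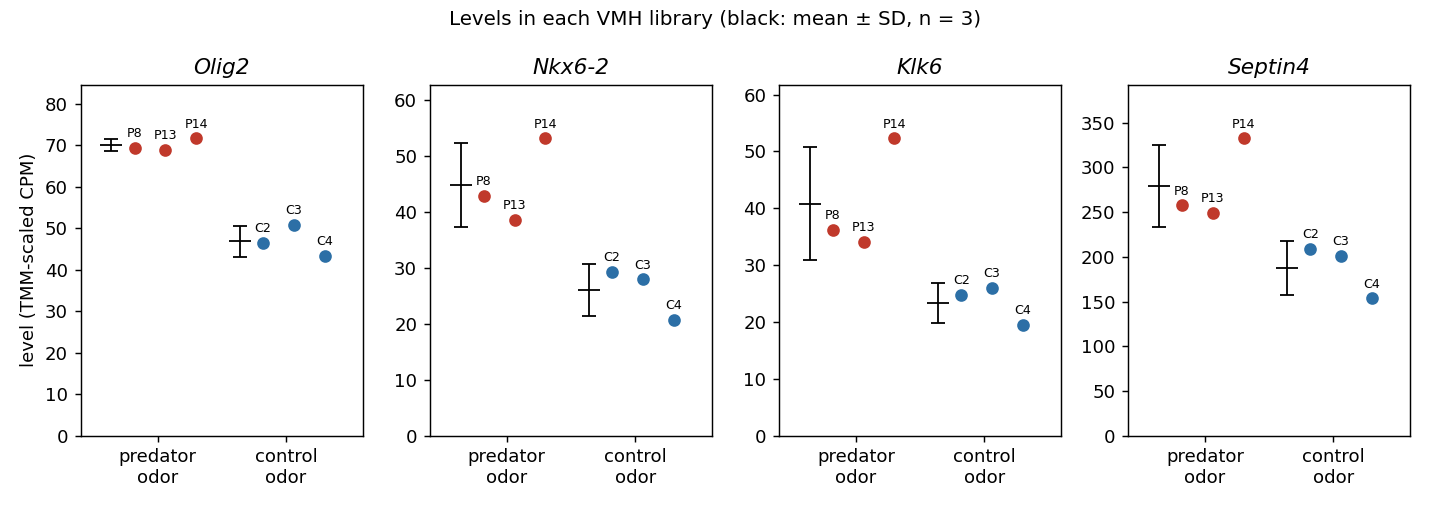
Levels of Olig2, Nkx6-2, Klk6 and Septin4 in TMM-scaled CPM (vertical axis, from 0), with 1 point per library, PO in red at the left and control odor in blue at the right of each panel. Black bars give the mean ± SD (n = 3). In every panel the 3 PO points lie above the 3 control odor points, and the PO points of Olig2 span only 68.9 to 71.6 CPM while those of Klk6 span 34.1 to 52.3 CPM.

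Nonoverlap of the groups in all 4 genes is set against 2171 of the 16685 features tested (13.01%) in which every PO library lay above every control odor library. With a fold of at least 1.5 in mean CPM as well, the number was 329 features (1.97%), among them Nkx6-2 and Klk6. Olig2 and Septin4 fell just short of 1.5-fold in mean CPM, at 1.49-fold each. By fitted fold change, 2 of the 4 genes reached 1.5-fold in edgeR. All 4 did in DESeq2, in edgeR with DESeq2-type size factors, and in edgeR without C3, P8 or P13. In the list of all log2 fold changes, 2.12% of features lay above Nkx6-2, 2.0% above Klk6, 3.93% above Olig2 and 3.95% above Septin4. At an adjusted p under 0.05 edgeR called 59 features (0.354%), 24 of them higher after PO exposure (0.144%), and of the 4 genes these included 1, Olig2. DESeq2 called 580 of the 13707 features to which it gave an adjusted p higher (4.23%), including all 4. Since the contrast chose the genes, nothing is read from these counts. The samples are bulk tissue, in which more cells of a type and more RNA per cell cannot be told apart.

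**Figure D2:**
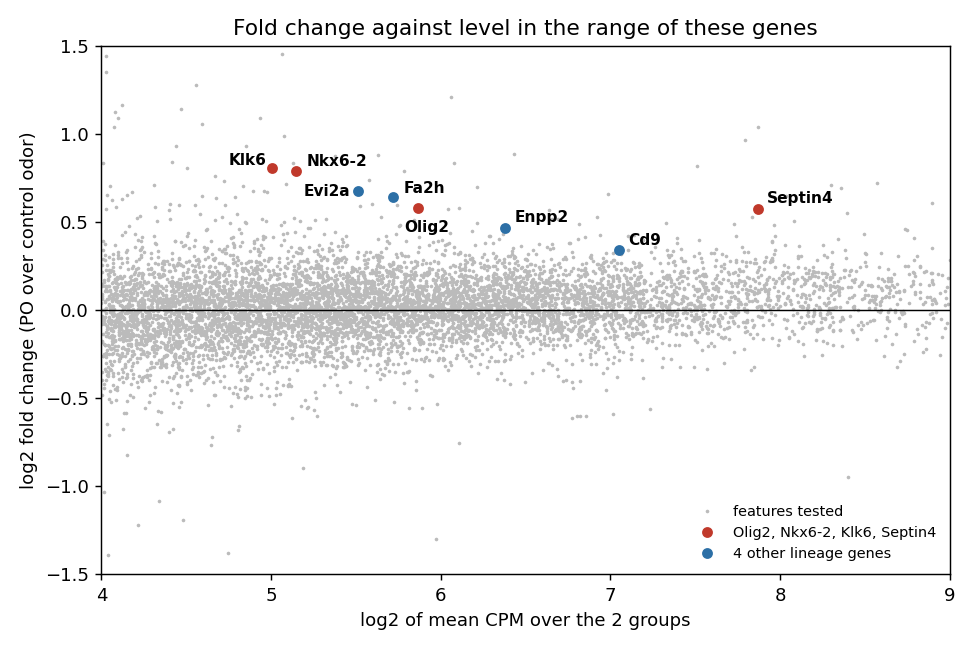
Log2 fold change of PO over control odor from edgeR (vertical axis) against log2 of the mean CPM over both groups (horizontal axis), for features tested (grey), the 4 genes (red) and 4 further oligodendrocyte genes (blue). The axes are limited to the range around these genes. All 8 lie above 0, Klk6 and Nkx6-2 highest among them at 0.81 and 0.79, and Septin4 stands furthest right.

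Levels of different genes were compared per length, with the deposited FPKM (fragments scaled to gene length and library depth). Septin4 averaged 284 ± 40.8 FPKM in PO rats and 200 ± 33.4 FPKM in control odor rats, and 2.63% of features had a higher mean. Klk6 averaged 36.8 ± 8.23 and 22.1 ± 3.51 FPKM, Nkx6-2 34.5 ± 5.06 and 20.9 ± 3.92 FPKM, and Olig2 25.8 ± 0.0457 and 18.1 ± 1.62 FPKM, in PO and control odor rats (SD, n = 3 each). Septin4 was above Klk6 in 6 of 6 libraries, by 8.38-fold (exact sign-flip permutation test, two-sided, p = 0.03125, the smallest that 6 libraries allow, and 0.09375 after Benjamini-Hochberg adjustment over 3 neighbouring pairs). In the same test, Klk6 and Nkx6-2 were 1.06-fold apart with Klk6 higher in 4 of 6 libraries (exact p = 0.125, adjusted 0.125). Nkx6-2 and Olig2 were 1.23-fold apart with Nkx6-2 higher in 5 of 6 (exact p = 0.0625, adjusted 0.09375). None of the 3 pairs passed 0.05 after adjustment, and the pairs were formed by ordering these same means. This order rests on the gene lengths in the authors' FPKM, which the counts show to be 961 bases for Septin4, 1081 for Klk6, 1267 for Nkx6-2 and 2650 for Olig2. The length used for Septin4 is short and may be that of a single transcript, and a longer one would lower its FPKM, its rank and its ratio to Klk6.

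Within groups, Nkx6-2, Klk6 and Septin4 varied together. P14 was the highest and C4 the lowest of the 6 libraries for all 4 genes. Expressed as the deviation of log2 CPM from the mean of the rat's own group, P14 stood at 0.26 for Nkx6-2, 0.38 for Klk6 and 0.26 for Septin4, and C4 at -0.31, -0.26 and -0.28. Olig2 deviated less, by 0.03 in P14 and -0.11 in C4. The deviations of Nkx6-2 and Septin4 correlated with a Pearson r of 0.99 over the 6 libraries, those of Klk6 and Septin4 with 0.96 and those of Nkx6-2 and Klk6 with 0.94. Olig2 correlated less closely, at 0.72 with Nkx6-2, 0.71 with Septin4 and 0.70 with Klk6. Its spread in PO libraries was no larger than counting error (coefficient of variation 2.09% against 2.80%). Its r therefore rests mostly on the control odor libraries, and a lower r does not set Olig2 apart from the other genes. These correlations describe 6 points that share libraries, depth and scaling, and 174 features (1.04%) reached an r above 0.95 with Nkx6-2 in the same measure. Among the 2171 features with nonoverlapping higher PO libraries, P14 was highest in 59.7%, C4 lowest in 32.4%, and both held in 21.0%.

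**Figure D3:**
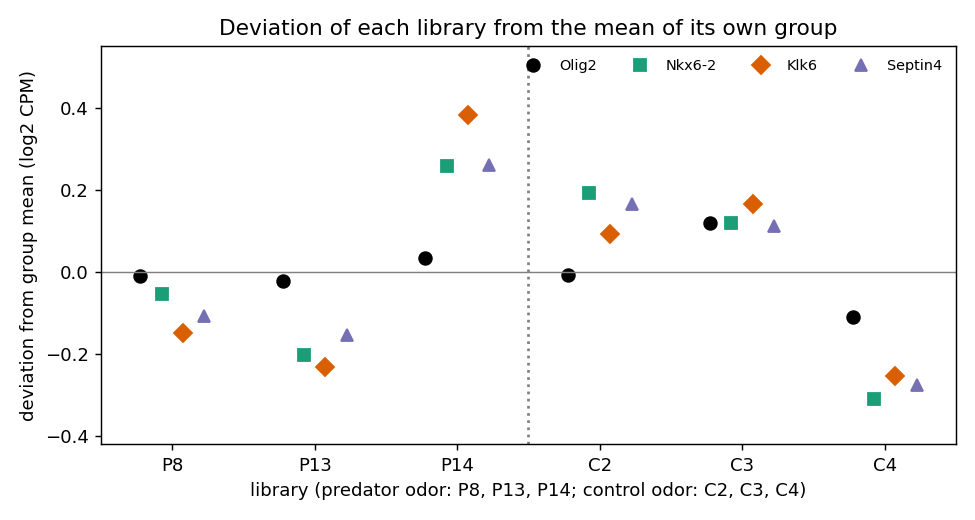
Deviation of each library's log2 CPM from the mean of its own group (vertical axis), by library (horizontal axis, PO left of the dotted line, control odor right), with a symbol for each gene. Nkx6-2, Klk6 and Septin4 lie together in each library, highest in P14 (0.26 to 0.38) and lowest in C4 (-0.31 to -0.26), while Olig2 stays within 0.12 of 0.

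Ratios between the genes within a library do not depend on the scaling of libraries. Klk6 stood at 0.905 ± 0.0722 of the CPM of Nkx6-2 in PO libraries and 0.905 ± 0.0536 in control odor libraries (SD, n = 3 each). In single libraries this ratio ran from 0.843 in C2 to 0.985 in P14. The ratio of Septin4 to Olig2 was 3.99 ± 0.566 in PO and 3.99 ± 0.473 in control odor libraries. These near-equal means restate the near-equal fold changes of genes chosen by this contrast (0.79 and 0.81, 0.58 and 0.58). They are not read as a result. Septin4 relative to Nkx6-2 was 6.03, 6.46 and 6.26 in PO libraries P8, P13 and P14, against 7.12, 7.20 and 7.44 in control odor libraries C2, C3 and C4. This ratio did not overlap between the groups, nor did that of Septin4 to Klk6, at 6.93 ± 0.505 in PO and 8.03 ± 0.373 in control odor libraries. Both ratios restate the difference between fold changes by which the genes were chosen (0.79 and 0.81 against 0.58), so nothing further is read from them. The ratios of Nkx6-2 to Olig2 (0.639 ± 0.0927 in PO and 0.552 ± 0.0767 in control odor libraries) and of Klk6 to Olig2 (0.582 ± 0.129 and 0.497 ± 0.0436) overlapped.

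Of the features with a gene name, those whose log2 CPM ran closest to each gene over the 6 libraries differed between Olig2 and the other 3 genes. For Olig2 they were Arc, an immediate early gene of neurons (r = 0.99 overall and 0.95 for deviations), Phlda3 (0.98 and 0.78), Pebp1, an inhibitor of Raf kinase (0.98 and 0.81), and Thy1, a surface glycoprotein of neurons (0.97 and 0.90). For Nkx6-2 they were Septin4, the RNA-processing gene Lsm4 (0.99 and 0.95), AC128207.1 (0.99 and 0.95) and Clec2l (0.98 and 0.93). Klk6 ran closest to Clec2l (0.98 for deviations), Evi2a (0.99), AC128207.1 (0.96) and Septin4, and Septin4 to Nkx6-2, Klk6, AC128207.1 (0.98) and the glycolipid transfer protein Gltp (0.95). AC128207.1 thus recurred for Nkx6-2, Klk6 and Septin4 and was not among the 4 nearest to Olig2. The 169 named features used are genes the study called in this same contrast, so the overall r was partly set by that choice. Olig2 was itself taken from a list in order of adjusted p, which favors genes with little spread within groups. Nothing is therefore read from the difference between its nearest features and those of the other 3 genes.

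Other genes of the lineage were looked up in lists of 66 genes covering transcription factors, precursors, myelin proteins, myelin lipid synthesis and mature cells. Of the 66, 4 are reported here by name, each known by name because the study called it in these libraries, so they are not independent evidence of a direction. The 4 are Cd9, a tetraspanin of myelin, Fa2h, which hydroxylates the fatty acids of myelin sphingolipids, Enpp2, the secreted enzyme autotaxin, and Evi2a, which lies within an intron of Nf1 in mice. None of the 4 passed the edgeR threshold, and all 4 had an unadjusted p under 0.05 (as did 3299 of the 16685 features). DESeq2 called all 4 higher, as it did 580 of 13707 features (4.23%). Since the study's own calls gave the 4 their names, this outcome was largely set in advance. The median log2 fold change of the 4 was 0.56, against -0.01 over all features tested.

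Evi2a stood at 56.1 ± 13 CPM in PO rats and 35.1 ± 6.18 CPM in control odor rats, 0.68 on the log2 scale (standard error 0.20), with edgeR's adjusted p at 0.157. Fa2h stood at 64.1 ± 7.08 and 41.0 ± 9.43 CPM (log2 fold change 0.64, adjusted p = 0.138), Enpp2 at 96.8 ± 5.13 and 70.0 ± 12.6 CPM (0.47, adjusted p = 0.108) and Cd9 at 148 ± 6.38 and 117 ± 8.49 CPM (0.34, adjusted p = 0.0519) in PO and control odor rats (SD, n = 3 each, edgeR). The groups did not overlap in any of the 4. Every PO library lay above every control odor library in 2171 of the 16685 features tested (13.01%). Since the 4 have names because the study called them in this contrast, nothing is read from their nonoverlap. Fa2h and Evi2a, 2 of the 4, were highest in P14 and lowest in C4, as were 21.0% of all features with nonoverlapping higher PO libraries, and their deviations correlated with those of Nkx6-2 at 0.83 and 0.92. Enpp2 was highest in P13 and lowest in C4, with an r of 0.73. Cd9 did not follow this pattern, with its highest level in P8, its lowest in C2 and an r of -0.52. Sirt2, a deacetylase abundant in myelin that was added after its values were seen, had 369 ± 19.0 CPM in PO rats and 280 ± 9.27 CPM in control odor rats and rose by 0.40 on the log2 scale (standard error 0.06, adjusted p = 0.027 from edgeR), a call that held in 9 of 16 alternatives. It was lost with edgeR without C2 (adjusted p = 0.131), C3 (0.0583), C4 (0.0612) or the robust option (0.0714), with voom (0.0751) and with limma on log2 FPKM (0.122 and 0.127). Sirt2 was highest in P14 but lowest in C2, and its deviations correlated with those of Nkx6-2 at 0.48. As Sirt2 was picked by its values, nothing is read from its call.

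The log2 fold changes of the 4 genes were positive in each of the 16 alternative analyses, a sign that was largely set in advance. The genes were chosen by this contrast, and in each of them every PO library lay above every control odor library. Leaving out P14 or C4, the libraries at the ends of the range, lowered Nkx6-2 to 0.65 in either case and Septin4 to 0.43 and 0.45, and lowered Klk6 to 0.59 and 0.69. Without P13 the same genes stood at 0.89, 0.66 and 0.93. Olig2 moved less, between 0.52 without C4 and 0.64 without C3. The edgeR call of Olig2 was lost without C2 and without C4, without the robust option, and with limma on log2 CPM (voom) or log2 FPKM.

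**Figure D4:**
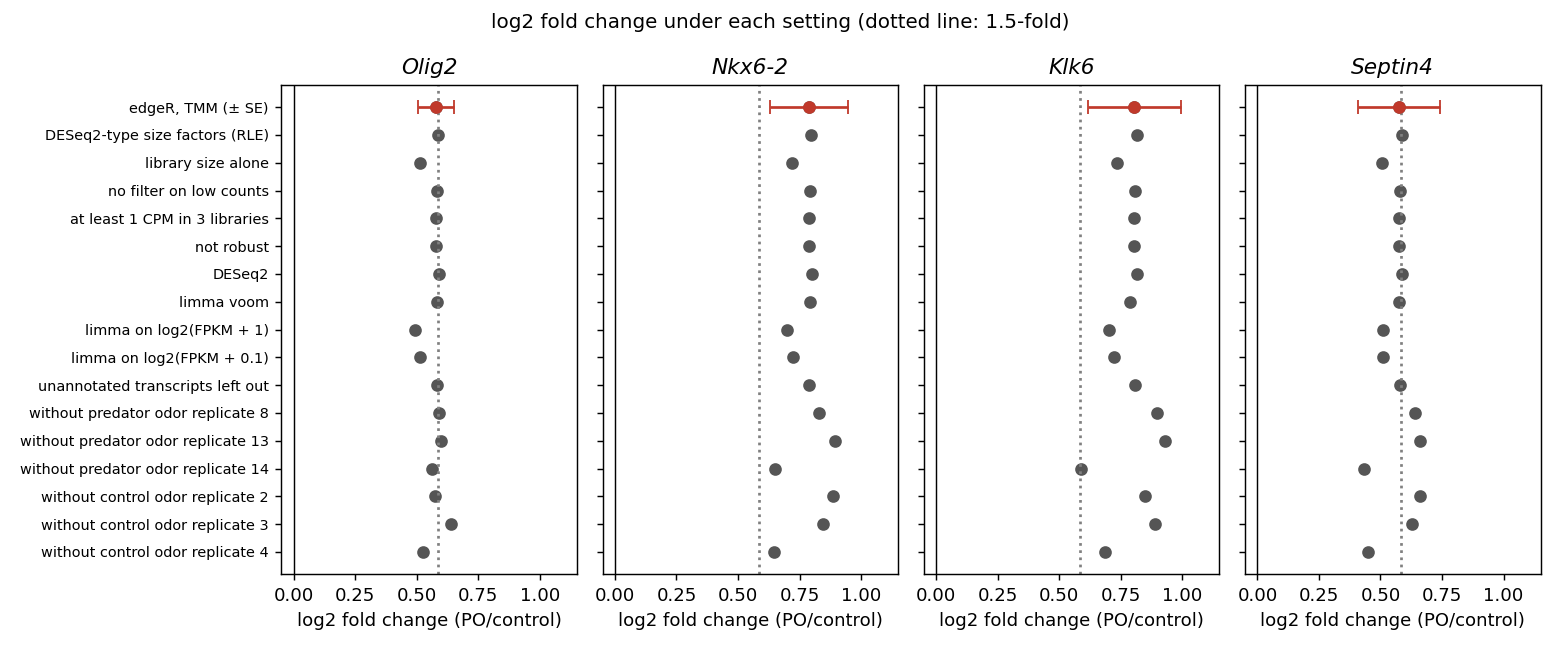
Log2 fold change of PO over control odor (horizontal axis) for each gene under each analysis (rows), with the edgeR value and its standard error in red at the top and the alternatives in grey. The dotted line marks a 1.5-fold change. All points lie right of 0, and over the 6 analyses with 1 library left out Septin4 ranges from 0.43 to 0.66 and Klk6 from 0.59 to 0.93.

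Genes of other brain tissues differed between the same libraries. Of 9 leptomeningeal genes 7 have a name, and all 7 were lower in every PO library than in any control odor library, as were 2208 of the 16685 features (13.2%). In the edgeR test 2 of them (Slc6a13 and Slc22a6) fell, among 35 features in all (0.210%). The named genes of this list and of the next are named because the study called them in this contrast, so their direction is largely set by that choice. Their summed level lay between 34.3 and 73.3 CPM in PO libraries and between 140.5 and 216 CPM in control odor libraries. C4, the library lowest in Olig2, Nkx6-2, Klk6 and Septin4, had the highest sum and P14, the highest in these genes, the lowest. The other libraries did not keep this inverse order within groups. P8 had a higher sum than P13 (73.3 and 42.7 CPM) and was also higher in all 4 genes. C2 had a higher sum than C3 (175.1 and 140.5 CPM), with more Nkx6-2 and Septin4 but less Olig2 and Klk6. For ependyma and choroid plexus, 3 of 9 genes have a name (Tp73, Folr1 and Spef1), and none of them passed the edgeR threshold. Their sum lay between 42.3 and 66.3 CPM in PO libraries and between 24.2 and 30.0 CPM in control odor libraries. The share of reads across splice junctions was 25.14%, 25.76% and 24.84% in P8, P13 and P14, against 25.84%, 25.79% and 25.73% in C2, C3 and C4. The part of these tissues and of the splice-junction share in the levels of the 4 genes was not tested. No gene of the lists for VMH neurons, other neurons, astrocytes, microglia or endothelium has a name in the sources used here, so the tissue label could not be checked against its defining markers, nor could the label of oligodendrocyte genes be checked against an abundant myelin gene such as Mbp.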

How the data were processed

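Features were counted in 6 VMH libraries, 3 after PO and 3 after control odor, grouped by the submitters' labels. The deposited counts are raw. For them the authors filtered the reads, mapped them to Rnor_5.0 (Ensembl version 79) by means of HISAT2 v2.1.0-beta, and took the number per gene from HTSeq v0.6.1 (union mode). The deposited FPKM were computed by the authors from these counts, and the deposited quality and mapping tables give numbers and percent of reads. The sources used here do not say whether strand was used or where the 2350 unannotated transcripts came from. The authors' tables of fold changes, p-values, GO and KEGG terms were not used, except for gene names. Names came from the study's list of top genes (39 IDs) and its table of called genes (130 IDs).

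edgeR 4.0.16 in R 4.3.3 was run on the counts of all 6 libraries with TMM, filterByExpr and a robust quasi-likelihood fit (common biological coefficient of variation 0.142), adjusted by Benjamini-Hochberg over 16685 features at 0.05. Alternatives used DESeq2 1.42.0 and limma 3.58.1. Other values came from Python 3.11.15, pandas 2.3.3, NumPy 2.4.6 and SciPy 1.17.1, and figures from Matplotlib 3.10.9. The fits were also run on simulated counts, and the outcome is not given here. Each feature was drawn separately with edgeR's own dispersions, so that run cannot say why the number of calls differed between analyses. Deviations use a prior count of 2 in log2 CPM. Counting coefficients of variation assume Poisson counts. Start regions are RefSeq sequences of GRCr8, another build than that of the counts, and no coordinates were converted.

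Named are the 4 genes, of each list the members past the edgeR threshold or, where none or more than 6 passed, the 4 with the smallest p, and for each of the 4 genes the 4 named features with the highest Pearson r. All 4 lineage genes with a name used here are given, and Sirt2 was added after its values were seen. The genes, lists and tests were chosen with earlier results of these data known. Each rat is 1 replicate. Some genes are not reported here.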

Additional observations from a re-analysis of the deposited data

How the results depend on the processing

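The number of features called by edgeR, 59 (24 higher and 35 lower after PO exposure), depended strongly on the analysis. It was 103 with library size alone (16 higher and 87 lower), 433 without a filter (247 higher and 186 lower), 865 with DESeq2 (580 higher and 285 lower), 2 without the robust option, 3 with voom, and 2 with limma on either FPKM scale. With 1 library left out it ranged from 9 (without C2, C4 or P14) to 266 (without P13, 187 higher and 79 lower), with 15 without C3 and 135 without P8. Of the 4 lineage genes, 0 were called, 1 with DESeq2-type size factors, 1 without a filter, 4 with DESeq2 and 0 to 1 with a library left out. The log2 fold change of Olig2 was 0.49 on log2(FPKM + 1). With a library left out it ranged from 0.52 to 0.64, that of Nkx6-2 from 0.65 to 0.89, of Klk6 from 0.59 to 0.93 and of Septin4 from 0.43 to 0.66. The median of the lineage genes ranged from 0.41 to 0.67, that of the leptomeningeal genes from -1.85 to -1.47 and that of the ependymal and choroid plexus genes, 0.75 on log2(FPKM + 1), from 1.00 to 1.61. No log2 fold change or median changed sign, which was largely set in advance since the groups overlapped in none of these genes. The cause of these differences between analyses was not tested.

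No paired analysis was possible because the rats of the PO and control odor groups share no replicate number in the labels. With 3 rats a group, an exact permutation test of a single gene cannot give a p below 0.1. Only 169 features are used by name here, so most genes of the lineage, and the other septins and kallikreins, were not analysed.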
